A study of Mus musculus with 12 samples.

Results

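The NRF2 antioxidant response genes described here are Nfe2l2, which encodes the transcription factor NRF2, and genes of the detoxifying and redox enzymes it is known to activate. They were taken by gene symbol, with the brightest probe set where a symbol had several. Of the 10 genes listed, 9 had a probe set (1 each) among the 19505 gene symbols and 22206 probe sets tested. G6pdx, the glucose-6-phosphate dehydrogenase gene, had none under its symbol and was not analysed here.

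Expression was measured in the liver of adult male C57BL/6J mice with 1 gene-level array per mouse. There were 6 sons of wild-type (WT) mothers, called WT-dam arrays 1 to 6, and 6 sons of mothers lacking uncoupling protein 1, called UCP1-KO-dam arrays 7 to 12. Uncoupling protein 1 is the heat-producing protein of brown fat mitochondria. All sires were heterozygous and all 12 sons are labelled heterozygous (HET), so the groups share the sons' genotype, and the parent that gave the allele without Ucp1 cannot be told apart from the mother's genotype. The sons were 4 to 5 months old and were kept at 23 °C with a standard chow diet and water freely available. Since no label ties a son to a litter, brothers may be among them, and a p-value here reflects only how these 12 livers vary. The comparison asks whether the liver's NRF2 genes differ with the genotype of the mother.

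In resting cells NRF2 is held by KEAP1, an adaptor that hands it to the CUL3 ubiquitin ligase for destruction. Oxidants and electrophiles modify KEAP1, and NRF2 then enters the nucleus, pairs with a small MAF protein and binds antioxidant response elements near its target genes. In liver this programme supplies glutathione, reduced thioredoxin, NADPH and conjugating enzymes, and it is regulated largely at the level of the NRF2 protein, so the Nfe2l2 transcript is an incomplete guide to its activity.

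No NRF2 gene passed the test. With limma and Benjamini-Hochberg adjustment over all probe sets, 0 of the 9 had an adjusted p under 0.05 (adjusted p = 0.185 to 0.892), where 0.0360% of all probe sets did. At an unadjusted p under 0.05 there were 2 of the 9, Srxn1 and Nfe2l2, both lower in sons of UCP1-KO dams, where 13.1% of all probe sets lay under that level. The 2 groups overlapped for each of the 9, and they did not overlap at 1.05% of all probe sets. Differences are given throughout as sons of UCP1-KO dams minus sons of WT dams on the log2 scale. Those of the 9 had a median of 0.06 and ran from -0.48 to 0.36, beside a median of 0.03 over all probe sets. Of the 9, 6 lay above 0 and 3 below, where 56.8% of all probe sets lay above 0. The median is the value of Cbr3, which is 1 of the 6 and was not detectable on these arrays.

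**Figure D1:**
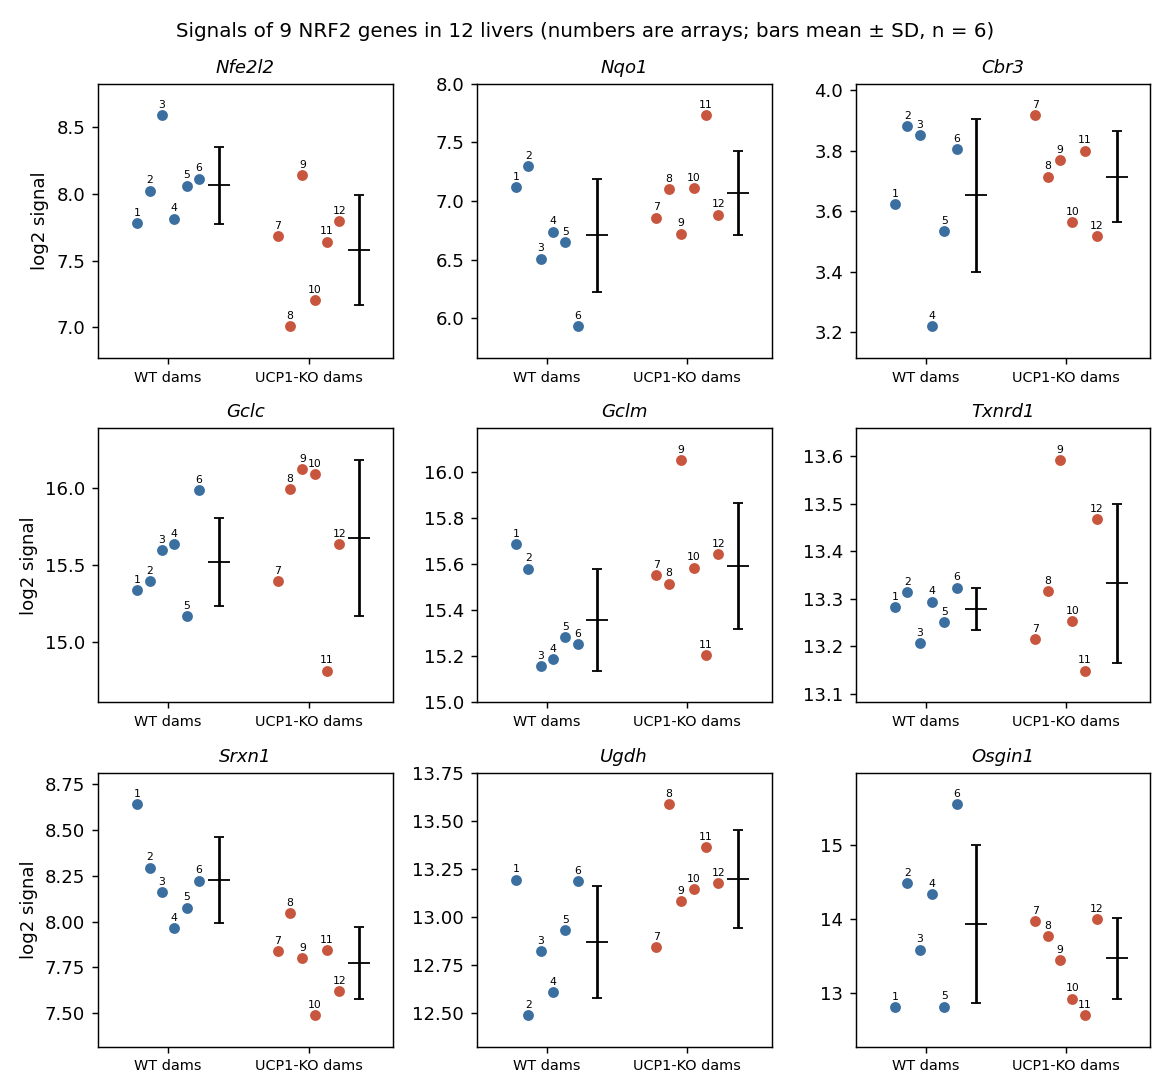
The log2 signal of each of the 9 genes is plotted for each liver, with sons of WT dams on the left and sons of UCP1-KO dams on the right of each panel; each panel has its own scale, and bars give the mean ± SD (n = 6). The groups overlap in all 9 panels, and Osgin1 spreads over the widest range, from 12.69 to 15.54.

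The arrays also carried 5222 negative control probe sets, whose median was 6.39 ± 0.21 (log2 signal, SD, n = 6) in sons of WT dams and 6.21 ± 0.14 (n = 6) in sons of UCP1-KO dams (exact two-sided permutation p = 0.119). It was 6.14 on both WT-dam arrays 1 and 2, and from 6.41 to 6.62 on WT-dam arrays 3 to 6. Gclc, Gclm, Txnrd1, Ugdh and Osgin1 were bright, above the 95th percentile of the negative controls on each of the 12 arrays. Nfe2l2 and Srxn1 were dim beside the negative controls: both lay above the median of these on all 12 arrays and above their 95th percentile on 0. Their means exceeded 80.4% and 82.6% of the negative control probe sets, and 64.5% and 66.1% of all probe sets tested. Nqo1 exceeded the median on 10 arrays and the 95th percentile on 0. It lay below the median on WT-dam arrays 3 (6.51 against 6.59) and 6 (5.93 against 6.41). Cbr3 exceeded the median on 0. RMA values of dim probe sets are compressed, so a difference in such a gene is understated where its signal is partly background. The 6 hepatocyte markers examined, Alb, Apoa1, Ttr, Serpina1a, Tat and Hnf4a, were all above the negative control median, which fits the label liver; their summed log2 level ran from 21.17 to 21.48 in sons of WT dams and from 21.41 to 21.54 in sons of UCP1-KO dams. Of markers of other cells, 6 of 6 for Kupffer cells, 6 of 6 for sinusoidal endothelium, 5 of 6 for stellate cells or fibroblasts, 1 of 5 for bile duct cells and 0 of 3 for lymphocytes or blood were above the negative control median in both groups. The summed Kupffer cell level ran from 12.48 to 13.69 and from 12.29 to 13.31, and 0 markers passed the test. At an unadjusted p under 0.05 were 2 of 6 for sinusoidal endothelium and 1 of 5 for pericentral hepatocytes, beside 13.1% of all probe sets. The 2 endothelial ones went opposite ways, Stab2 at -0.74 (limma adjusted p = 0.175) and Lyve1 at 0.94 (limma adjusted p = 0.191). In whole liver, fewer cells of a type and less RNA per cell cannot be told apart.

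Nfe2l2, the NRF2 gene itself, had a lower mean in sons of UCP1-KO dams. Its log2 signal had a lowest value of 7.78, a median of 8.04 and a highest value of 8.59 in sons of WT dams, and 7.01, 7.66 and 8.14 in sons of UCP1-KO dams. UCP1-KO-dam arrays 8 and 10, at 7.01 and 7.20, were the lowest of all, while array 9, at 8.14, lay above 5 of the 6 WT-dam arrays. The means were 8.06 ± 0.29 and 7.58 ± 0.41 (SD, n = 6 each), a log2 difference of -0.48 (95% confidence interval -0.87 to -0.09) that did not pass (limma adjusted p = 0.270, unadjusted 0.0181). The difference was -0.19 without UCP1-KO-dam arrays 8, 10 and 11 and -0.32 without WT-dam arrays 3 to 6, with unadjusted limma p of 0.336 and 0.249.

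Srxn1 encodes sulfiredoxin, which reactivates over-oxidised peroxiredoxins at the cost of ATP and is among the most inducible NRF2 targets. Its log2 signal ran from 7.96 over a median of 8.19 to 8.64 in sons of WT dams, and from 7.49 over 7.82 to 8.05 in sons of UCP1-KO dams. Of the 6 arrays of each group, 5 of UCP1-KO dams lay below every WT-dam array and 5 of WT dams above every UCP1-KO-dam array. WT-dam array 4 at 7.96 and UCP1-KO-dam array 8 at 8.05 were the ones that crossed. The means were 8.23 ± 0.23 and 7.77 ± 0.19 (SD, n = 6 each), a log2 difference of -0.45 (95% confidence interval -0.75 to -0.16, 1.37-fold lower), the smallest p of the 9 (limma adjusted p = 0.185, unadjusted 0.00449). In each of the 23 alternatives run, the Srxn1 difference stayed below 0, from -0.69 without WT-dam arrays 3 to 6 to -0.37 without WT-dam array 1, and its adjusted p ranged from 0.122 to 0.553.

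The enzymes of glutathione synthesis were brighter than the controls and did not differ beyond their spread. Gclc encodes the catalytic subunit of glutamate-cysteine ligase, which makes the rate-limiting step, and Gclm the modifier subunit that raises its efficiency. Gclc ran from 15.17 over a median of 15.50 to 15.98 in sons of WT dams and from 14.82 over 15.82 to 16.12 in sons of UCP1-KO dams (log2 difference 0.15, 95% interval -0.28 to 0.59, limma adjusted p = 0.794). Sons of UCP1-KO dams lay on both sides of the others: arrays 8, 9 and 10 exceeded every WT-dam array, and array 11 at 14.82 was below every one. Leaving out single arrays gave Gclc differences from 0.07 (array 9) to 0.33 (array 11).

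Gclm ran from 15.15 over a median of 15.27 to 15.69 in sons of WT dams and from 15.20 over 15.57 to 16.05 in sons of UCP1-KO dams. WT-dam arrays 1 and 2, at 15.69 and 15.58, lay among the UCP1-KO-dam arrays, and WT-dam arrays 3 to 6, from 15.15 to 15.28, lay below at least 5 of the 6. The log2 difference was 0.23 (95% interval -0.08 to 0.55, limma adjusted p = 0.526). The WT-dam arrays with low Gclm were those with bright negative controls: without them the difference was -0.042, with the negative control median as a covariate it was 0.06 (a part of the control signal in the result was not tested). It was 0.14 without UCP1-KO-dam array 9, the highest at 16.05, and 0.39 without UCP1-KO-dam arrays 8, 10 and 11.

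Txnrd1, the cytosolic thioredoxin reductase that keeps thioredoxin reduced with NADPH, had the steadiest signal of the 9. It ran from 13.21 over a median of 13.29 to 13.32 in sons of WT dams and from 13.15 over 13.29 to 13.59 in sons of UCP1-KO dams. UCP1-KO-dam arrays 9 and 12, at 13.59 and 13.47, stood above the other 10. The log2 difference was 0.05 (95% interval -0.19 to 0.30, limma adjusted p = 0.888). Leaving out array 9 took it to 0.0017, and leaving out arrays 8, 10 and 11 together to 0.15. The interval reached at most 1.23-fold higher.

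Ugdh oxidises UDP-glucose to UDP-glucuronic acid, the donor for glucuronidation. Its log2 signal ran from 12.49 over a median of 12.87 to 13.19 in sons of WT dams and from 12.84 over 13.16 to 13.59 in sons of UCP1-KO dams. Only arrays 8 and 11, at 13.59 and 13.36, exceeded every WT-dam array, and WT-dam arrays 2, 3 and 4 lay below every UCP1-KO-dam array. The means were 12.87 ± 0.29 and 13.20 ± 0.25 (SD, n = 6 each), a log2 difference of 0.33 (95% confidence interval -0.0034 to 0.66, limma adjusted p = 0.387, unadjusted 0.0521). The Ugdh difference was 0.16 without UCP1-KO-dam arrays 8, 10 and 11.

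Nqo1 and Cbr3 are cytosolic reductases that use NADPH, Nqo1 on quinones and Cbr3 on carbonyl compounds. Nqo1 is a standard reporter of NRF2 activity in liver, though its signal here was near the negative controls. It ran from 5.93 over a median of 6.70 to 7.30 in sons of WT dams and from 6.72 over 6.99 to 7.73 in sons of UCP1-KO dams. All 6 UCP1-KO-dam arrays lay above the WT-dam mean of 6.71, but only array 11, at 7.73, exceeded every WT-dam array. The log2 difference was 0.36 (95% interval -0.08 to 0.80, limma adjusted p = 0.485). Without WT-dam arrays 3 to 6, which held the 4 lowest values of that group and the bright negative controls, it was -0.14. The covariate gave 0.21, and so did leaving out WT-dam array 6; leaving out UCP1-KO-dam array 11 gave 0.23, and arrays 8, 10 and 11 together 0.11. A part of the control signal in the Nqo1 difference was not tested.

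Cbr3 read 3.65 ± 0.25 in sons of WT dams and 3.71 ± 0.15 in sons of UCP1-KO dams (SD, n = 6 each), higher than only 2.72% of the negative control probe sets. Its expression was therefore not detectable on these arrays, and its log2 difference of 0.06 (95% confidence interval -0.23 to 0.35, limma adjusted p = 0.892), which turned to -0.023 with the covariate, -0.025 when WT-dam array 4 was dropped and -0.039 when WT-dam arrays 3 to 6 were, is no measure of its transcript.

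Osgin1, an NRF2-induced growth inhibitor also known as OKL38, varied most between mice. Its log2 signal ran from 12.80 over a median of 13.96 to 15.54 in sons of WT dams and from 12.69 over 13.60 to 14.00 in sons of UCP1-KO dams. WT-dam arrays 1 and 5, at 12.80 and 12.81, lay near the bottom of all 12, and WT-dam arrays 2, 4 and 6, at 14.48, 14.33 and 15.54, lay above every UCP1-KO-dam array. The highest and the lowest liver differed 7.21-fold, against 1.36-fold for Txnrd1. The standard deviations were 1.07 and 0.55, and the log2 difference was -0.46 (95% interval -1.27 to 0.34, limma adjusted p = 0.645). Leaving out WT-dam array 6 alone gave -0.14. A change of Osgin1 by over 2-fold in the downward direction lay inside the interval.

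**Figure D2:**
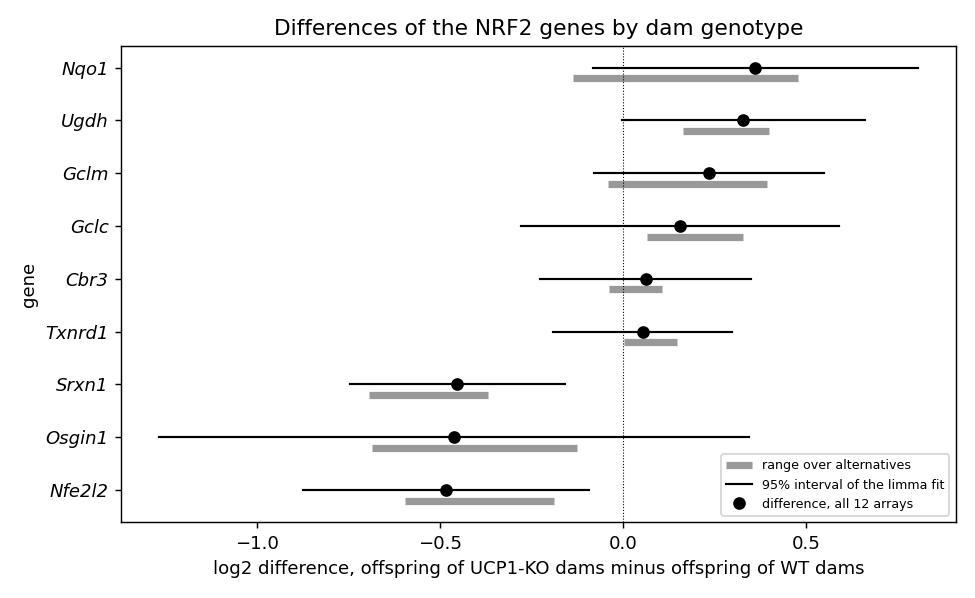
Points give the log2 difference of each gene, sons of UCP1-KO dams minus sons of WT dams, with its 95% interval from limma (thin line) and, just under it, the range over the alternatives run (thick grey line). The intervals of Srxn1 and Nfe2l2 lie below 0 before adjustment, and the grey ranges of Nqo1, Gclm and Cbr3 cross 0.

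The members did not vary as 1 block from liver to liver. As a description, with each group's mean subtracted, Pearson's r over the 12 arrays had a median of -0.02 over the 36 pairs of members, 16 above 0 and 20 below. These pairs include the undetected Cbr3 and the dim Nqo1, Nfe2l2 and Srxn1, so background signal enters that median. Among the 5 bright genes r ran from -0.17 (Ugdh and Osgin1) to 0.73. The closest pair was Gclm and Txnrd1 (r = 0.73, Spearman's rho 0.52), at 0.38 within sons of WT dams and 0.90 within sons of UCP1-KO dams, and 0.61 without the 2 arrays farthest from the median of Gclm. Gclc and Txnrd1 had 0.57 (0.36 without the 2 farthest arrays for Gclc). Gclc and Gclm had 0.37 (Spearman's rho 0.13), and 0.13 without the same 2 arrays. Within sons of WT dams that pair had -0.46 and within sons of UCP1-KO dams 0.75. Nqo1 and Gclc ran opposite to each other, with -0.65 over all arrays, -0.73 in sons of WT dams and -0.70 in sons of UCP1-KO dams, though with -0.28 without the 2 arrays farthest from the median of Nqo1. Nqo1 and Osgin1 had -0.54 (-0.11 without those 2 arrays). UCP1-KO-dam array 11 had the highest Nqo1 of the 12 livers and the lowest Gclc, Txnrd1 and Osgin1, and WT-dam array 6 the lowest Nqo1 and the highest Osgin1. Nfe2l2 itself had r from -0.36, with Nqo1, to 0.40, with the undetected Cbr3. All 36 values share the same 12 arrays.

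**Figure D3:**
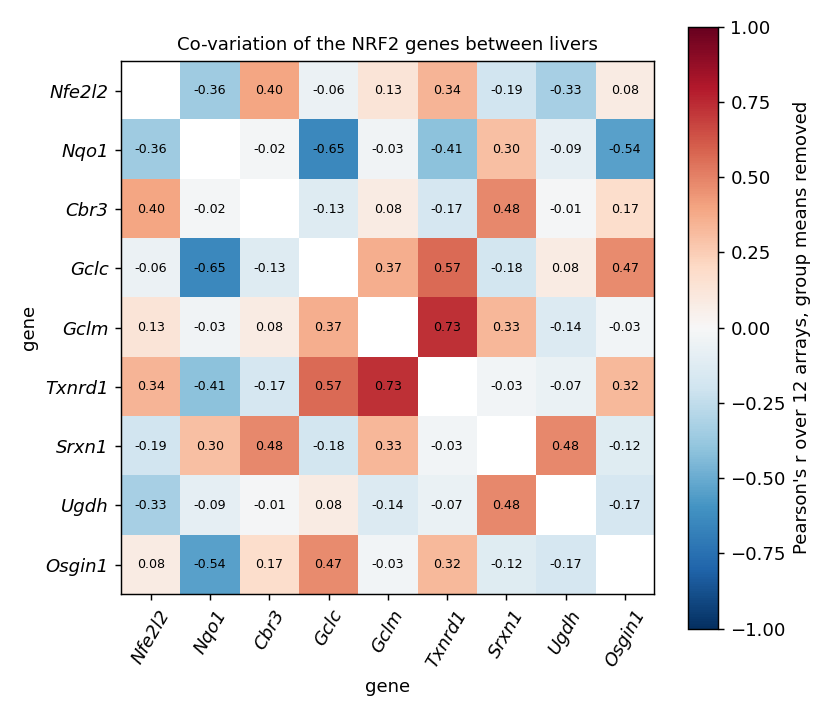
Each square gives Pearson's r between a pair of the 9 genes over the 12 arrays after each group's mean was subtracted, from blue for -1 to red for 1. The squares among Gclm, Gclc and Txnrd1 are warm (0.37 to 0.73), and the Nqo1 row is mostly blue, down to -0.65 with Gclc. The 0.37 of Gclc and Gclm was -0.46 within sons of WT dams.

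The promoters show which of these genes carry the core of the antioxidant response element close to their start site. The search covered RefSeq windows of 300 bases (GRCm38.p6), 250 before and 50 after the start, for TGACNNNGC on both strands. The related core TGAGNNNGC was added after the first search. Of the 8 measured members with a window, 5 held TGACNNNGC (Nfe2l2, Srxn1, Gclm, Ugdh and Txnrd1), as did 2354 of the 15691 genes with a window and a probe set. With either core it was 6 of 8, Osgin1 being the addition, against 5108 (32.6%) of those genes. Nqo1 and Cbr3 held neither in this window, which says only that these letters are not in it. For Txnrd1, which had 3 windows, 1 held the core. The 250 bases before the start of Srxn1 are printed because it had the smallest p of the 9, and those of Nfe2l2 because it is the regulator's own gene. Capitals mark either core, read in the direction of the gene.

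Srxn1 (chr2:152105274-152105523, + strand): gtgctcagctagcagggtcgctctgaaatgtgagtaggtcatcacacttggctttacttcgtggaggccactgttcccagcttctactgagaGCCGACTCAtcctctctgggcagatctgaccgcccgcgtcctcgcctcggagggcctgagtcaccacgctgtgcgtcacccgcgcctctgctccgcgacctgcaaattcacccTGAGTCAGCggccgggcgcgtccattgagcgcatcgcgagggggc

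Nfe2l2 (chr2:75704664-75704913, - strand): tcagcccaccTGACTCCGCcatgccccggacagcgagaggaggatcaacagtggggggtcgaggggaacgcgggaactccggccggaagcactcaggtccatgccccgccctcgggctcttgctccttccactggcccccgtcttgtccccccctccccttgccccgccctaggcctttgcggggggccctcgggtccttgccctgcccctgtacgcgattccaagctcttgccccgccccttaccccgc

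In Srxn1 the core TGAGTCAGC began 45 bases before the start and TGAGTCGGC, on the opposite strand, 158 bases before it, and a further opposite-strand core, TGACCTAGC, lay after the start at bases 29 to 37. In Nfe2l2 the core TGACTCCGC began 240 bases before the start. Short stretches around the core of the other members are set beside each other here to show how the bases inside and around it differ, with the core in capitals.

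Gclm (chr3:122245407-122245447, + strand): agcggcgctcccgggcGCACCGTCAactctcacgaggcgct

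Txnrd1 (chr10:82859098-82859138, + strand): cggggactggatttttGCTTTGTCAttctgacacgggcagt

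Ugdh, upstream core (chr5:65435950-65435990, - strand): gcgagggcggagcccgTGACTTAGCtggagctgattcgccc

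Ugdh, downstream core (chr5:65435912-65435952, - strand): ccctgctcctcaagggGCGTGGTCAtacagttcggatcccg

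Osgin1 (chr8:119437032-119437072, + strand): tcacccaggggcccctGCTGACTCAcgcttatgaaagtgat

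The cores of Gclm, Txnrd1 and Osgin1 and the downstream one of Ugdh lie on the opposite strand and therefore appear as their reverse complement. Read on their own strand, that of Osgin1 was TGAGTCAGC, the same letters as the Srxn1 core that began 45 bases before the start. Those of Gclm, TGACGGTGC, Txnrd1, TGACAAAGC, and Ugdh, TGACTTAGC and TGACCACGC, had TGAC in place of TGAG and also differed from it in the bases marked N. Srxn1 and Osgin1, with the shared core, had log2 differences of -0.45 and -0.46, of which neither passed, and an r of -0.12 across the livers.

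Other genes around NRF2 were read from 8 lists of 98 genes, of which 90 had a probe set. In these lists 0 of 90 passed, and 14 (15.6%, beside the 13.1% of all probe sets) had an unadjusted p under 0.05, 8 higher and 6 lower in sons of UCP1-KO dams. Of the 90 differences, 50 lay above 0 and 40 below, where 56.8% of all probe sets lay above 0. The genes of a list share the same 12 arrays, and no list was tested as a set. Among 12 regulators of NRF2, 1 had an unadjusted p under 0.05: Cul3, the scaffold of the ligase that marks NRF2 for destruction, with a log2 difference of 0.32 (interval 0.04 to 0.60 at 95%; adjusted p = 0.306, limma). Keap1 had -0.09 (limma adjusted p = 0.821). Mafg, a small MAF partner, had -0.26, Gsk3b, a kinase that also promotes NRF2 turnover, -0.12, and Mafk -0.22, the last not above the negative controls.

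Among 12 other glutathione genes, 9 lay above 0, with a median of 0.05. Slc7a11 and Gpx2, which are among the 9, lay below the negative control median in both groups. Glrx, the glutaredoxin that removes glutathione from proteins, was the 1 gene with an unadjusted p under 0.05, with means of 11.50 ± 0.29 and 10.93 ± 0.42 (SD, n = 6 each) and a log2 difference of -0.58 (limma adjusted p = 0.198). Gss, which completes glutathione synthesis, had 0.32, Gsr, which regenerates reduced glutathione, 0.19, and the lipid peroxide-reducing Gpx4 0.21. Among 11 other thioredoxin and peroxiredoxin genes, 10 lay above 0, with a median of 0.16, the highest of the 8 lists. Both counts stand beside 56.8% of all probe sets above 0, and neither was tested. The median of 0.16 is the value of Txnrd3, whose mean of 6.25 in sons of WT dams lay below the negative control median of 6.39. Prdx1, the abundant cytosolic peroxiredoxin and a substrate of sulfiredoxin, ran from 17.10 to 17.37 in sons of WT dams and from 17.42 to 17.69 in sons of UCP1-KO dams, so these groups did not overlap (log2 difference 0.29, 95% interval 0.05 to 0.53, limma adjusted p = 0.278). It was the 1 gene of the 90 without overlap, where 1.05% of all probe sets had none, so a count of 1 is near that background. Prdx4, of the endoplasmic reticulum, had 0.36, Txnl1, a thioredoxin-like protein, 0.31, and Prdx2 0.20. Prdx1 thus had a higher mean and Srxn1 a lower mean in sons of UCP1-KO dams, neither past the test. Within the groups, WT-dam array 1 (17.37 and 8.64) and UCP1-KO-dam array 8 (17.69 and 8.05) were highest for both genes. UCP1-KO-dam array 10 was the lowest for Srxn1 (7.49) but not for Prdx1 (17.61). A link between these genes was not tested.

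**Figure D4:**
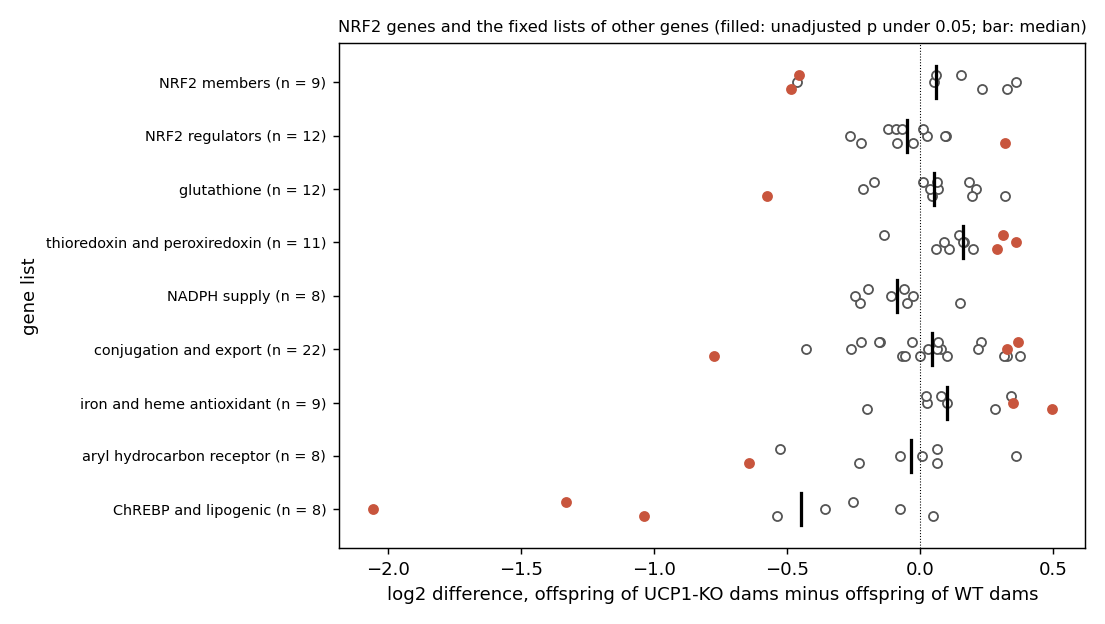
Each point is the log2 difference of 1 gene, sons of UCP1-KO dams minus sons of WT dams, in rows for the 9 NRF2 genes and the 8 lists of other genes; filled points have an unadjusted p under 0.05 and vertical bars give the median of the row. None passed after adjustment over all probe sets. The thioredoxin and peroxiredoxin row lies mostly to the right of 0, and the ChREBP and lipogenic row, with a median of -0.45, mostly to the left. Of all probe sets 56.8% lay above 0, and no row was tested as a set.

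Of 8 genes that supply NADPH, 7 lay below 0 with a median of -0.08, and 0 had an unadjusted p under 0.05. Over all probe sets 43.2% lay below 0 and 56.8% above. Me1, the malic enzyme, had -0.24, H6pd -0.23, Pgd, of the pentose phosphate pathway, -0.19 and Taldo1 0.15. Of 22 conjugation and export genes, 12 lay above 0. Gstm2, a mu-class glutathione S-transferase, had a log2 difference of -0.77 (limma adjusted p = 0.129), from 12.88 ± 0.30 to 12.10 ± 0.47 (n = 6, SD). Gsta4, an alpha-class transferase that clears lipid aldehydes, had 0.37, Akr7a5, an aldehyde reductase, 0.33, and the exporter Abcc4 0.37. Glutathione S-transferase genes resemble each other, and how far their probes share signal was not examined. Of 9 iron and heme antioxidant genes, 8 lay above 0: Blvra, a biliverdin reductase, had 0.49 (limma adjusted p = 0.181), the mitochondrial superoxide dismutase gene Sod2 0.35 (limma adjusted p = 0.236), the iron exporter Slc40a1 0.34 and Hmox1, the heme oxygenase that NRF2 is known to induce, 0.28 (limma adjusted p = 0.669).

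Nqo1 is also a target of the aryl hydrocarbon receptor, so 8 genes of that pathway were read beside it. Cyp1a2, the constitutive liver target, had -0.64 (limma adjusted p = 0.261). It read 15.11 and 15.17 on UCP1-KO-dam arrays 8 and 11, and from 16.12 to 16.61 on the other UCP1-KO-dam arrays. The WT-dam range was 16.36 to 16.89. The summed level of 5 pericentral hepatocyte markers ran from 18.90 to 19.12 in sons of WT dams and from 18.59 to 19.06 in sons of UCP1-KO dams. Cyp2e1, with means of 18.78 and 18.58, weighs most in that sum. The differences of the 5 ran from -0.44 (Slc1a2) to 0.15 (Axin2), with a median of -0.20. Their part in Cyp1a2 was not tested. The receptor gene Ahr had -0.53 (limma adjusted p = 0.401), while Arnt had -0.23 and Cyp1b1, below the negative controls, 0.36. The Nqo1 difference, 0.36 over all arrays, was -0.14 without WT-dam arrays 3 to 6, so its sign was not stable. Neither Cyp1a2 nor Nqo1 passed, and a part of the receptor in the Nqo1 difference was not tested. The 8 ChREBP and lipogenic genes, several of whose products consume NADPH, had a median of -0.45. Of them, 3 had an unadjusted p under 0.05, all lower, and none passed. These were Mlxipl (-1.04, limma adjusted p = 0.0891), Pklr (-2.05, limma adjusted p = 0.134) and Thrsp (-1.33, limma adjusted p = 0.263). Pklr read 11.26, 10.77 and 10.98 on UCP1-KO-dam arrays 8, 10 and 11. On UCP1-KO-dam arrays 7, 9 and 12 it read 13.48, 13.37 and 14.24, inside the WT-dam range of 13.03 to 15.29. Mlxipl read 14.72 and 14.66 on WT-dam arrays 1 and 2, and from 15.62 to 16.02 on WT-dam arrays 3 to 6. Fasn had -0.54.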

How the data were processed

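The authors deposited 1 log2 signal per probe set and array, for which the submitters' processing notes name RMA and, as software, the Transcriptome Analysis Console; versions and RMA variant are not given in the sources used here. RMA corrects background, makes the arrays alike in their distribution and summarises probes, so a change shared by most genes would be reduced. Columns were matched to mice by sample identifier. After 6640 control rows were left out, 22206 probe sets were fitted with no filter in limma 3.58.1 (R 4.3.3; lmFit, eBayes; tests two-sided). Dam genotype was the single term in the model, no batch or pairing being labelled. P-values were adjusted by Benjamini-Hochberg over all of them, and an adjusted p under 0.05 counted as passed. The procedure was tested on simulated data. Symbols came from the platform annotation, which named 19572 probe sets; promoters came from RefSeq. The number of arrays limits the precision.

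The members and gene lists were chosen with earlier results of these data known. All members are named, and from each list of other genes those that passed and up to 4 of smallest unadjusted p, plus the 5 genes most like the members' mean profile. Keap1, Slc7a11, Gpx2, Txnrd3 and the single markers given with a difference were named outside this rule, after their values were seen. Alternatives were 2 normalizations, 2 filters on dim probe sets, named probe sets only, averaging per symbol, a variance trend, array weights, the negative control median as a covariate, and leaving out arrays singly or in the 2 sets named in the text, which stood apart in those earlier results.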

Additional observations from a re-analysis of the deposited data

How the results depend on the processing

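The count of 0 members passing did not change in any of the 23 alternatives (Cbr3 had no value in 2 of them, which left out dim probe sets), and of the 9 differences, those of Nfe2l2, Srxn1, Gclc, Txnrd1, Ugdh and Osgin1 kept their sign in all of them. Those that turned were Nqo1 (-0.14) and Gclm (-0.042) without WT-dam arrays 3 to 6, and Cbr3, with -0.023 with the negative control median as a covariate, -0.039 without WT-dam arrays 3 to 6 and -0.025 to 0.11 with single arrays left out. The cause was not tested. The count of members at an unadjusted p under 0.05, 2 in the report, was 1 without WT-dam arrays 3 to 6, 3 with the variance trend (Ugdh at 0.0391 added) and 1 to 3 with single arrays left out. Without UCP1-KO-dam arrays 8, 10 and 11 it was again 2, now Srxn1 and Gclm (0.0429), with Nfe2l2 at 0.336. Nfe2l2 also exceeded 0.05 without WT-dam array 3 (0.0534) or UCP1-KO-dam array 8 (0.0530). The count over all probe sets, 8, was 32 without the dimmer 50%, 22 with the variance trend, 2 with the covariate, 0 without WT-dam arrays 3 to 6, 0 without UCP1-KO-dam arrays 8, 10 and 11, and 1 to 112 with single arrays left out. Dropping arrays leaves fewer to estimate the spread. No paired analysis was possible because the arrays are numbered 1 to 12 across both groups. Dim signals limit Nfe2l2, Srxn1, Nqo1 and Cbr3.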

Other observations

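As a description, each array's mean over the 9 members, with group means subtracted, was compared with 9531 other named genes above the negative control median in both groups. The 5 genes with the highest Pearson's r over the 12 arrays were Kdm3a, a histone demethylase (0.89), Usp4, a ubiquitin-specific protease (0.88), Gas2l1, a cytoskeletal linker (0.87), Frrs1, a ferric reductase family gene (0.86), and Ptpn21, a tyrosine phosphatase (0.86). They are the extreme of 9531 values with a median of 0.07, and the share of such values that chance would give was not tested. By dam genotype these 5 had log2 differences of -0.36, 0.07, -0.23, 0.10 and 0.27, none of which passed (limma adjusted p = 0.445 to 0.857). The mean was taken over log2 values that were not scaled to a common spread, so Osgin1, with the widest range (2.85, against 0.44 for Txnrd1), weighs most in it. The members' own r with that mean ran from -0.39 (Nqo1) to 0.73 (Osgin1), with 0.06 for Ugdh and 0.24 for Nfe2l2. A gene close to the mean is therefore not close to each member.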
